A study of Homo sapiens with 6 samples.

Results

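The mitochondrial ribosomal proteins were taken as the rows of the deposited gene table whose symbol is MRPL or MRPS followed by a number and, in some cases, a letter from A to C. The rule found 78 of 60612 rows, 49 of them named MRPL and 29 MRPS, and it used no measured value. Of the 78, 51 belong to the large subunit and 26 to the small subunit, with MRPS30 and MRPS18A placed in the large subunit despite their names. The remaining one, MRPS36, has since been assigned to the 2-oxoglutarate dehydrogenase complex and is kept here because its symbol meets the rule. RNA sequencing compared A549 cells, an established human lung adenocarcinoma line, that had received an siRNA against GSE1 (siGSE1, 3 libraries) with A549 cells that had received a negative control siRNA (control, 3 libraries), all harvested 48 hours after transfection. Neither the siRNA sequences nor the number of different siRNAs per target are given in the labels. GSE1 encodes a protein found with the CoREST histone deacetylase and demethylase complex, and the study's stated aim was to find genes and pathways under its influence.

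Mitochondria keep a ribosome of their own, which translates only the proteins encoded in the mitochondrial genome, all of them subunits of the respiratory chain and of the ATP synthase. Its rRNAs are transcribed from mitochondrial DNA, while every one of its proteins is encoded in the nucleus, made on cytosolic ribosomes and imported. Some of these proteins descend from bacterial ribosomal proteins and others have no bacterial counterpart and were added in the evolution of mitochondria. Transcription factors known to act on their genes include GABP (an ETS-family factor), NRF1 and YY1, with MYC as a further activator.

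Promoters of 3 members are shown to let the sites for these factors be seen beside the results: MRPS23, which had the smallest p-value of all members, MRPS24, another small-subunit member that fell, and MRPL22, which had the largest fold change upward and did not pass the test. Each line runs 5′ to 3′ on the strand of the gene from 120 bases before to 30 bases after the RefSeq transcription start (GRCh38.p14), at chr17:57850015-57850164 (minus strand), chr7:43869488-43869637 (minus strand) and chr5:154940953-154941102 (plus strand). Capitals mark letters of the ETS site (CCGGAAG, here on the opposite strand), the YY1 site (AAGATGGCG) and the NRF1 site (GCGCNTGCG). MRPL22 also holds an AAGATGGCG outside the stretch printed, within the longer window used for the counts below.
MRPS23: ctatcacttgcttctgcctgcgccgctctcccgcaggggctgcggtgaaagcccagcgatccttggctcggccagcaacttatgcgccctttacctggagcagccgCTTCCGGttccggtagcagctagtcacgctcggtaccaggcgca
MRPS24: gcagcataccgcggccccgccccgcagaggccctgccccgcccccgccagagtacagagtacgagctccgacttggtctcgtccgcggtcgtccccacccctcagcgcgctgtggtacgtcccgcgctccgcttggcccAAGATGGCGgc
MRPL22: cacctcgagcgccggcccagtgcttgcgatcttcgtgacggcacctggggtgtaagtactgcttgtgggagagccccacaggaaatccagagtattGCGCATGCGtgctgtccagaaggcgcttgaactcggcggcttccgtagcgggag

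RefSeq promoter windows of 300 bases (250 before to 50 after the start) were matched by symbol for 69 of the 78 members. The 3 sites were searched on both strands, and a gene with several starts was counted once. CCGGAAG was present for 30 of the 69 members (43.5%), against 21.2% of 11122 tested genes with a promoter entry and 12.2% of all 27305 symbols. AAGATGGCG was present for 13 members (18.8%), against 4.46% of the tested genes and 2.14% of all symbols. GCGCNTGCG was present for 12 members (17.4%), against 16.3% of the tested genes and 9.01% of all symbols. At least 1 of the 3 sites was present for 45 members (65.2%), against 36.2% of the tested genes and 20.4% of all symbols. CCGGAAG and AAGATGGCG can overlap in the letters AAG. These matches are letters in a window and were not tested for binding.

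The libraries held 14475992 to 20755506 counts. GSE1 itself was at 7.37, 8.06 and 7.92 FPKM (the authors' counts scaled to exonic length and to the library's total count) in control replicates 1, 2 and 3 and at 3.84, 4.06 and 3.73 in siGSE1 replicates 1, 2 and 3. Its level thus fell to 49.0% of control in the edgeR model, and the groups did not overlap. Of 15937 genes that passed a filter on low counts, 1730 were higher and 1437 lower in siGSE1 at an adjusted p under 0.05 (edgeR quasi-likelihood test, Benjamini-Hochberg adjustment over all genes tested). With limma on log2(TPM + 1), that is after rescaling to a fixed sum per library, 1884 were higher and 702 lower. Control replicate 2 stood apart from its group, with a chi-square per degree of freedom of 10.1 and 8.97 against the other control libraries, where that pair had 4.60 and the siGSE1 pairs 2.49 to 3.32. Of the epithelial markers, KRT8 and KRT18, the keratins of simple epithelia, were at 632 to 863 FPKM and 764 to 1053 FPKM, while EPCAM, an epithelial adhesion molecule, was at 0.45 to 1.14 FPKM. Markers of other cell types were low: 7 of 9 for leukocytes, 7 of 8 for fibroblasts and 7 of 7 for endothelium stayed under 1 FPKM in every library. Replicates are numbered in the labels without a word on whether they were separate cultures, so p-values here reflect the spread among these libraries alone, and that spread may be technical.

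All 78 members passed the filter. The median member was at 15.4 FPKM in control and 15.2 in siGSE1, where the median tested gene was at 3.77 and 3.84. Mean levels over the 6 libraries spanned 126-fold, with 54 members at 10 FPKM or more and 7 under 5. The most abundant was MRPL41, a large-subunit protein also described as a partner of BCL2, at 131.60, 130.30 and 125.70 FPKM in the control libraries and 116.99, 122.42 and 134.34 in the siGSE1 libraries. Its groups overlapped (log2 fold change -0.08, SE 0.06, adjusted p = 0.437). MRPS34, a small-subunit protein with no bacterial counterpart, followed at 90.39, 87.71 and 78.82 FPKM in control and 97.47, 92.82 and 105.03 in siGSE1. MRPS26, of the same class, had 96.39, 96.69 and 89.21 FPKM in control and 88.75, 88.10 and 90.74 in siGSE1, again with overlap (log2 fold change -0.10, SE 0.06, adjusted p = 0.229). In these 6 libraries the ranges of MRPS34 and MRPS26 overlapped each other, and both stayed below MRPL41.

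**Figure D1:**
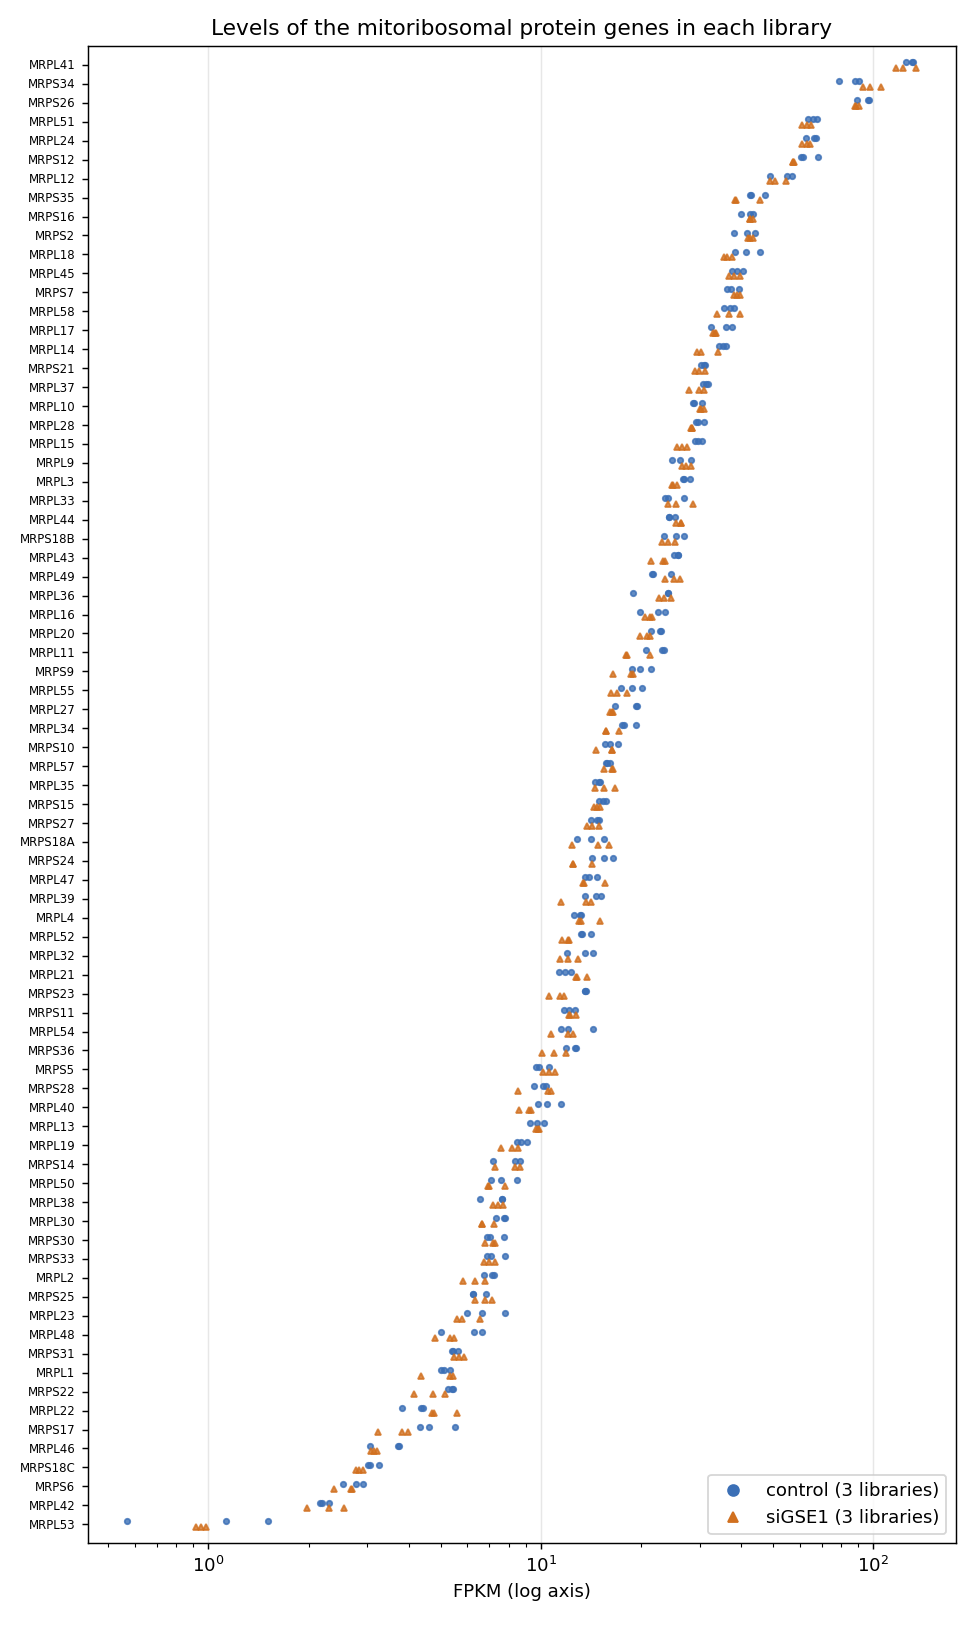
FPKM of each of the 78 mitochondrial ribosomal protein genes (rows, ordered by mean level) on a log axis, with 1 point per library, circles for the 3 control and triangles for the 3 siGSE1 libraries. The points of a gene lie close together against the 126-fold span between genes, and MRPL53 at the bottom has the widest scatter.

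At the low end lay MRPL53, a large-subunit protein, at 0.57, 1.13 and 1.51 FPKM in control and 0.92, 0.98 and 0.95 in siGSE1, from 8 to 16 counts per library. Its 95% interval for the log2 fold change ran from -1.10 to 0.79 and thus includes a halving. MRPL42, also of the large subunit, had 2.31, 2.17 and 2.19 FPKM in control and 2.30, 2.55 and 1.98 in siGSE1 (log2 fold change 0.01, SE 0.09, adjusted p = 0.966). MRPS6, a small-subunit protein with a bacterial counterpart, had 2.78, 2.92 and 2.54 FPKM in control and 2.38, 2.71 and 2.69 in siGSE1 (log2 fold change -0.11, SE 0.12, adjusted p = 0.557). None of the 3 separated the groups. The rank of MRPL42 depends on the exon length used. The deposited length of MRPL42 was 16394 bases, the union of all annotated exons, where the GENCODE transcript with the longest coding sequence has 701 bases. On that length MRPL42 ranked 15 instead of 77, while MRPL53 stayed at 78 and MRPS6 went from 76 to 68.

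After GSE1 knockdown 9 of the 78 members fell (11.5%), 0 rose and 69 did not pass the test. Among all tested genes, 9.02% were lower and 10.9% higher by the same call, so the share of members that fell was near the background. Without adjustment, 21 members were lower and 2 higher at a p under 0.05, or 26.9% and 2.56%, where 15.5% and 17.04% of all tested genes were. Changes were small: the members that fell had a median of 1.17-fold, and 0 of 78 met the stricter call (adjusted p of 0.001 or less with a log2 fold change beyond 0.5 in size), which 2.55% of all tested genes met. The median log2 fold change of the members was -0.09 (range -0.42 to 0.23) against 0.00 for all tested genes, and 57 of 78 members (73.1%) were below 0 against 49.4% of all tested genes. The FPKM ranges of the groups did not overlap for 17 members in the lower direction, where 14.9% of all tested genes did so, and for 4 in the higher direction (MRPL22, MRPL21, MRPL44 and MRPS34), where 21.2% did so. The median stayed below 0 under all 14 alternative settings, while the count of members that fell ran from 1 to 10. With DESeq2 5 members fell and 0 rose. The count went to 3 without control replicate 1, 3 without siGSE1 replicate 1, 1 without siGSE1 replicate 2 and 1 without siGSE1 replicate 3, and it was 9 without control replicate 2, when 2 members rose.

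**Figure D2:**
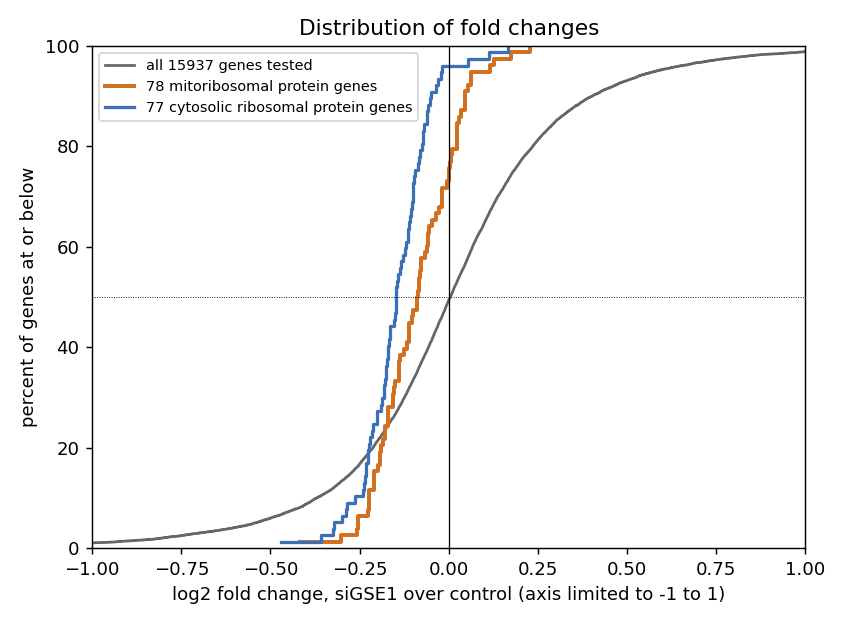
Percent of genes (y axis) at or below a given log2 fold change, siGSE1 over control (x axis), for all 15937 tested genes, the 78 mitochondrial and the 77 cytosolic ribosomal protein genes. The mitochondrial curve is steep, crosses 50 percent at -0.09 and lies between the cytosolic curve, which crosses at -0.15, and the curve of all genes over much of its height.

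The 95% interval of the log2 fold change lay within -0.5 and 0.5, a change of 1.41-fold, for 76 of 78 members, the exceptions being MRPL53 and MRPS17. Within a group, members varied little, with a median coefficient of variation of 4.49% in control and 4.88% in siGSE1. By library, the median deviation of the members from their own 6-library mean was 0.08, 0.05 and 0.01 in the control libraries and -0.02, -0.05 and -0.04 in the siGSE1 libraries on the log2 scale. Control replicate 1 was thus the highest library, and control replicate 3 the nearest to the siGSE1 libraries. Together the members took 0.395%, 0.391% and 0.385% of the counts in control and 0.379%, 0.377% and 0.377% in siGSE1. In bulk RNA, fewer cells with a high level and less RNA per cell cannot be told apart.

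**Figure D3:**
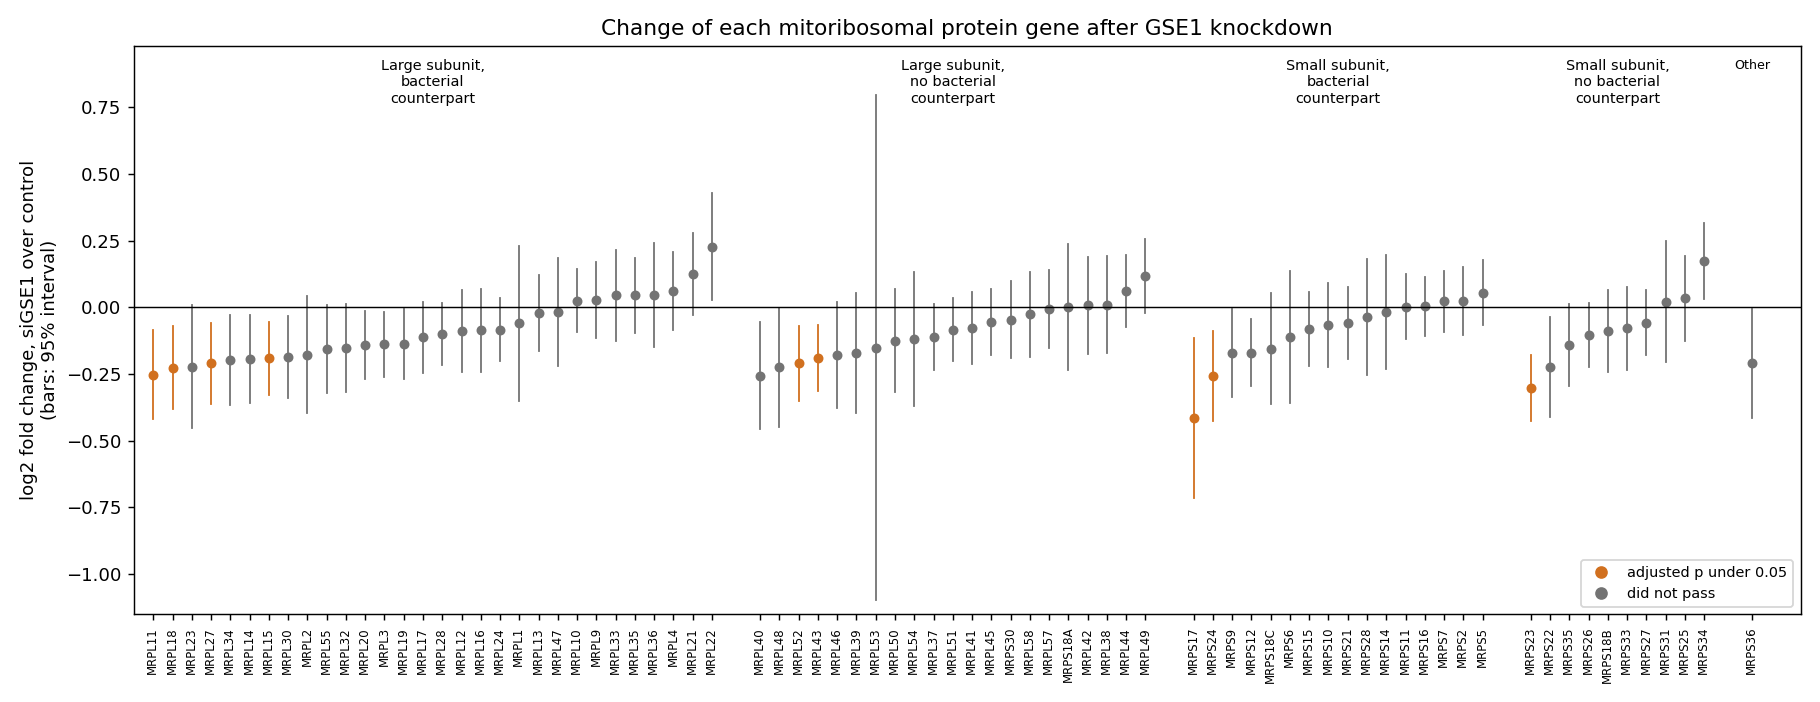
Log2 fold change, siGSE1 over control (y axis), of each mitochondrial ribosomal protein gene (x axis), grouped by subunit and by whether a bacterial counterpart exists. Points are the edgeR estimates, bars their 95% intervals, and the 9 coloured points have an adjusted p under 0.05, all of them below 0.

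Of the 30 large-subunit members with a bacterial counterpart, 4 fell, 0 rose and 22 were below 0 (median log2 fold change -0.11). Among all tested genes 9.02% were lower, 10.9% higher and 49.4% below 0, the background for this class and those below. No class was tested against these shares. MRPL11, part of the stalk base that contacts translation factors, had 23.07, 23.45 and 20.65 FPKM in control and 21.33, 18.14 and 18.06 in siGSE1. It fell by 0.25 on the log2 scale (SE 0.08, edgeR adjusted p = 0.0322), although siGSE1 replicate 1 lay above control replicate 3. MRPL18, a protein of the central protuberance, had 45.60, 41.34 and 38.31 FPKM in control and 37.51, 36.15 and 35.63 in siGSE1. Every siGSE1 library was below every control library (log2 fold change -0.23, SE 0.07, adjusted p = 0.0384). MRPL15 had 30.53, 29.67 and 29.03 FPKM in control and 27.43, 26.59 and 25.57 in siGSE1, without overlap (log2 fold change -0.19, SE 0.06, adjusted p = 0.0444). MRPL27, whose bacterial counterpart reaches towards the peptidyl transferase centre, had 19.39, 19.35 and 16.70 FPKM in control and 16.08, 16.33 and 16.49 in siGSE1. The groups of MRPL27 were separated only by the gap between 16.70 and 16.49 (log2 fold change -0.21, SE 0.07, adjusted p = 0.0484).

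The same class held the largest fold change upward. MRPL22, whose counterpart lines the exit tunnel of the nascent chain, had 4.36, 4.42 and 3.81 FPKM in control and 4.76, 5.59 and 4.70 in siGSE1. Its groups did not overlap, but it did not pass the test (log2 fold change 0.23, SE 0.09, edgeR adjusted p = 0.103). It was named after its values were seen.

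Of the 21 large-subunit members with no bacterial counterpart, 2 fell, 0 rose and 16 were below 0 (median log2 fold change -0.08). MRPL43 had 25.80, 25.89 and 25.06 FPKM in control and 23.32, 21.48 and 23.65 in siGSE1, all 3 below the control libraries (log2 fold change -0.19, SE 0.06, edgeR adjusted p = 0.0306). MRPL52 had 13.28, 14.13 and 13.24 FPKM in control and 12.10, 11.58 and 12.11 in siGSE1, likewise without overlap (log2 fold change -0.21, SE 0.07, adjusted p = 0.0362). By GENCODE exons, 36.9% of the exonic bases of MRPL43 overlap other genes, on the opposite strand, and no source used here says whether the counting used strand, so reads of MRPL43 and of its neighbours SEMA4G and TWNK could not be told apart where they overlap.

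Of the 16 small-subunit members with a bacterial counterpart, 2 fell, 0 rose and 11 were below 0 (median log2 fold change -0.06). MRPS24 had 15.51, 14.23 and 16.48 FPKM in control and 14.27, 12.52 and 12.48 in siGSE1. It fell by 0.26 on the log2 scale (SE 0.08, edgeR adjusted p = 0.0305), and siGSE1 replicate 1 lay just above control replicate 2. MRPS17 had 4.32, 5.53 and 4.61 FPKM in control and 3.83, 3.99 and 3.23 in siGSE1, without overlap. Its change was the largest of all 78 members in size and had the second widest interval (log2 fold change -0.42, SE 0.14, 95% interval -0.72 to -0.12, adjusted p = 0.0485), from 135 to 241 counts per library. Of the exonic bases of MRPS24 and MRPS17, 23.2% and 27.0% are shared with another gene on the same strand.

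Of the 10 small-subunit members with no bacterial counterpart, 1 fell, 0 rose and 7 were below 0 (median log2 fold change -0.08). This was MRPS23, at 13.68, 13.56 and 13.60 FPKM in control and 11.77, 11.39 and 10.54 in siGSE1. The 3 control libraries were nearly identical and all 3 siGSE1 libraries lay below them, 18.9% lower in the model (log2 fold change -0.30, SE 0.06, 95% interval -0.43 to -0.18, edgeR adjusted p = 0.00177). No other gene shares exons with it in GENCODE. MRPS34, in the same class, had the second largest fold change upward and did not pass the test (log2 fold change 0.17, SE 0.07, adjusted p = 0.0819), though the groups did not overlap. It passed the threshold when control replicate 1 (adjusted p = 0.0485) or 2 (0.0326) was left out. MRPS36, outside both subunits, did not pass (log2 fold change -0.21, SE 0.10, adjusted p = 0.144).

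**Figure D4:**
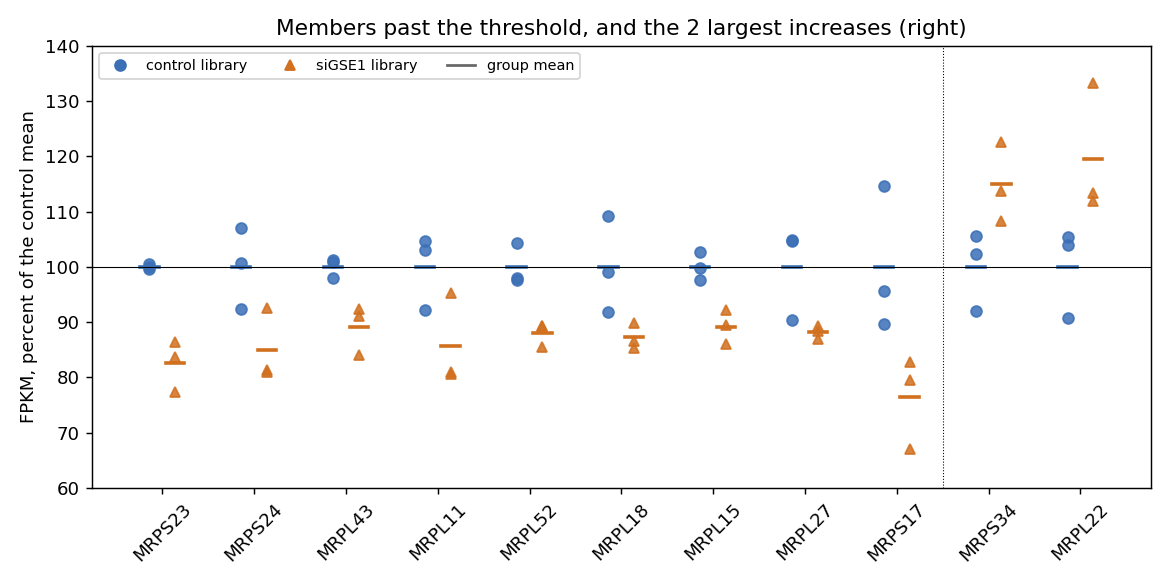
FPKM of single libraries as a percent of the gene's control mean (y axis, from 60 to 140) for the 9 members with an adjusted p under 0.05 and, right of the dotted line, the 2 largest increases, which did not pass. Circles are control and triangles siGSE1 libraries, short lines are group means, and siGSE1 libraries of MRPS24 and MRPL11 reach into the control range.

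MRPS23 kept its call under all 14 alternative settings (adjusted p from 0.000253 to 0.0226), and it was the only member to do so. The other 8 failed the threshold without siGSE1 replicate 2, with an adjusted p of 0.0734 to 0.176, and without siGSE1 replicate 3, with one of 0.0543 to 0.192. Without siGSE1 replicate 1, MRPS23, MRPS24 and MRPL11 kept the call, and without control replicate 1, MRPS23 and MRPS17 did. Without control replicate 2, MRPL52, MRPL27 and MRPS17 lost it (adjusted p 0.0775 to 0.170), and without control replicate 3, MRPS24 and MRPS17 lost it (adjusted p 0.0513 to 0.0871). The 8 genes kept their direction in each of these fits, which had 5 libraries in place of 6.

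Genes in the neighbourhood were examined because many of these genes start near another gene. Starts in this paragraph are the outermost gene bounds in GENCODE, which can lie far from the RefSeq starts used for the promoters. MRPS22, for example, is counted with PRR23A, although its deposited gene bound is chr3:139005806 and its first RefSeq promoter window begins at chr3:139343744. An opposite-strand protein-coding gene starts within 1000 bases of the start of 29 members (37.2%), against 17.1% of the 13181 tested protein-coding genes, and for 15 members the distance is at most 100 bases. MRPL46 and MRPS11 are each other's partner, with 34 bases between their GENCODE gene bounds. Of the 28 partners tested, which include the members MRPL46 and MRPS11, 4 were lower and 2 higher in siGSE1. Among the 13181 tested protein-coding genes 1361 were lower and 1653 higher, and among all tested genes 9.02% and 10.9%. TCP1, a subunit of the cytosolic chaperonin that starts 63 bases from MRPL18, fell from 65.4 to 56.0 FPKM (log2 fold change -0.25, SE 0.06, edgeR adjusted p = 0.00689). SLC7A7, an amino acid transporter subunit that starts 59 bases from MRPL52, fell from 41.7 to 35.1 FPKM (log2 fold change -0.27, SE 0.06, adjusted p = 0.00344). EME1, a DNA endonuclease subunit that starts 6 bases from MRPL27, rose from 7.17 to 9.14 FPKM (log2 fold change 0.32, SE 0.09, adjusted p = 0.0164). MRPL18 and MRPL52 thus moved in the same direction as their partners and MRPL27 in the opposite one. Whether members and partners move together was not tested. The other partners past the threshold were TWNK (with MRPL43) and PTCD2 (with MRPS27), both lower, and SKA3 (with MRPL57), which was higher. MRPL11, which fell, had by its outer gene bound a partner that did not pass, PELI3 (log2 fold change -0.04, SE 0.12, adjusted p = 0.877). The deposited bound of MRPL11 is chr11:66466738, while its RefSeq promoter window is chr11:66438799-66439098. PELI3 was thus assigned at the outer bound and not at that promoter.

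Among the 8 members that fell and had a RefSeq promoter entry, 5 held CCGGAAG (MRPS23, MRPL18, MRPL27, MRPL43 and MRPL52), 2 held AAGATGGCG (MRPS24 and MRPL52) and 0 held GCGCNTGCG. Of the 61 that did not pass, 25 held CCGGAAG, 11 AAGATGGCG and 12 GCGCNTGCG. The median log2 fold change of members with CCGGAAG was -0.11 and of those without it -0.08, with AAGATGGCG it was -0.07 against -0.09, and with GCGCNTGCG it was -0.13 against -0.09. With at least 1 of the 3 sites it was -0.11 and with none -0.07. These differences were not tested.

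The cytosolic ribosomal proteins, the counterparts that build the ribosome outside mitochondria, had a lower median: of 77 tested, 31 fell, 1 rose and 74 were below 0 (median log2 fold change -0.15). Their count of lower genes was 20, 41 and 40 without control replicates 1, 2 and 3, 17, 15 and 14 without siGSE1 replicates 1, 2 and 3, and 13 with limma on log2(TPM + 1). The difference between both kinds of ribosomal protein was not tested. Among all tested genes 9.02% were lower, 10.9% higher and 49.4% below 0, the background for this set and for the lists that follow. No list was tested against these shares. Of the mitoribosomal proteins that carry other names, 0 of 5 passed the test (DAP3, PTCD3, CHCHD1, AURKAIP1 and GADD45GIP1, median -0.06). Without adjustment 1 was lower at a p under 0.05. With DESeq2 0 of the 5 passed, while 1 was lower with the length trend removed and 1 with the GC and length trends removed. The most abundant of the 5, AURKAIP1, was at 40.8 ± 2.04 FPKM in control and 39.7 ± 1.26 in siGSE1 (SD, n = 3 each). CHCHD1 was at 20.9 ± 0.58 and 20.9 ± 0.41.

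**Figure D5:**
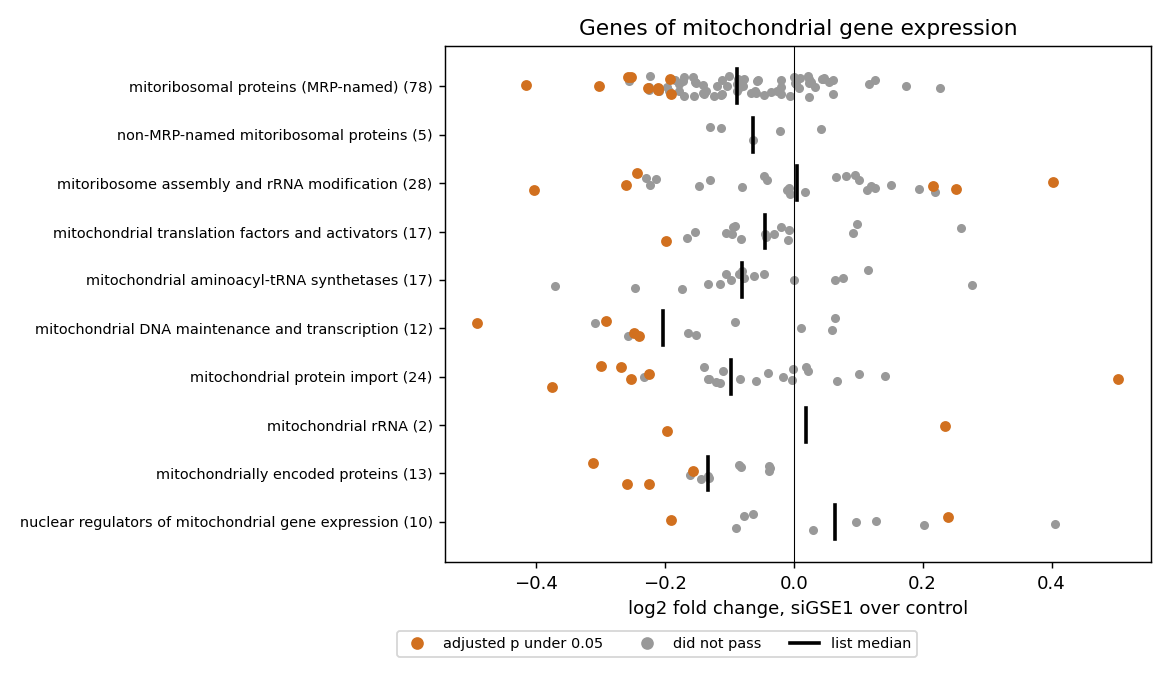
Log2 fold change, siGSE1 over control (x axis), of the tested genes of lists that serve mitochondrial gene expression (rows, number tested in brackets), 1 point per gene, coloured where the adjusted p is under 0.05, with a black line at the list median. The mitoribosomal proteins run from -0.42 to 0.23 with a median of -0.09, and TFB2M (left) and TOMM22 (right) in other lists lie farther from 0 than any of them.

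Among 28 genes for mitoribosome assembly and rRNA modification, 3 rose, 3 fell and the median was 0.01. RCC1L, an assembly factor, rose from 14.7 ± 1.28 (SD, n = 3) to 19.8 ± 0.90 FPKM (SD, n = 3; log2 fold change 0.40, SE 0.07, edgeR adjusted p = 0.000732). LONP1, the matrix protease, rose from 33.2 to 40.2 FPKM (log2 fold change 0.25, SE 0.06, adjusted p = 0.00448). MPV17L2, needed for large-subunit assembly, fell from 10.7 to 8.28 FPKM (log2 fold change -0.40, SE 0.09, adjusted p = 0.00568). FASTKD2, which binds the large-subunit rRNA, fell from 5.71 to 4.86 FPKM (log2 fold change -0.26, SE 0.07, adjusted p = 0.0147), a call lost without siGSE1 replicate 2 (adjusted p = 0.101) or 3 (adjusted p = 0.0527). The other changed genes of the list, named outside the naming rule, were METTL17 (log2 fold change 0.22) and DHX30 (-0.24). Genes of the list thus changed in both directions, and the count of lower genes was 1 without siGSE1 replicate 2.

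Of 12 genes for maintenance and transcription of mitochondrial DNA, 4 fell and 0 rose (median log2 fold change -0.20). TFB2M, the initiation factor of the mitochondrial RNA polymerase, fell from 15.8 ± 0.74 (SD, n = 3) to 11.4 ± 1.07 FPKM (SD, n = 3; log2 fold change -0.49, SE 0.09, edgeR adjusted p = 0.000978). POLRMT, the polymerase itself, fell from 19.2 to 16.4 FPKM (log2 fold change -0.25, SE 0.06, adjusted p = 0.00683). MGME1, a nuclease of mitochondrial DNA, fell by 0.29 on the log2 scale (SE 0.07, adjusted p = 0.00745), and TWNK, the replicative helicase, by 0.24 (SE 0.08, adjusted p = 0.0345). Without siGSE1 replicate 2, POLRMT, MGME1 and TWNK missed the threshold (adjusted p = 0.0564, 0.0578 and 0.0975), and TWNK also missed it without siGSE1 replicate 1 (0.0727), siGSE1 replicate 3 (0.150) or control replicate 2 (0.126). TFB2M kept its call when any single library was left out, and without siGSE1 replicate 2 it was the only one of the 12 to fall.

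The mitochondrial translation factors and activators had 1 lower gene of 17 (median log2 fold change -0.04), the initiation factor MTIF2 (18.6 to 16.4 FPKM, log2 fold change -0.20, SE 0.06, edgeR adjusted p = 0.0371). MTIF2 missed the threshold without control replicate 3 (adjusted p = 0.110) and without siGSE1 replicates 1, 2 or 3 in turn (0.0914, 0.111 and 0.125), and also with limma on log2(TPM + 1) (0.168), with no low-count filter (0.0676) and with the replicate block (0.0523). Of 17 mitochondrial aminoacyl-tRNA synthetases, 0 passed (median -0.08), also with DESeq2. In other alternatives 1 was lower with the length trend removed, 1 lower with the GC and length trends removed, and 1 higher without siGSE1 replicate 1. Without adjustment 2 were lower and 1 higher at a p under 0.05. The most abundant 2 of these, IARS2 and HARS2, were at 58.3 ± 1.94 and 18.1 ± 1.19 FPKM in control and 55.1 ± 1.48 and 17.9 ± 0.12 in siGSE1 (SD, n = 3 each).

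Protein import, which brings every mitoribosomal protein into the organelle, had 5 lower genes and 1 higher of 24 tested (median log2 fold change -0.10). TOMM22, a receptor of the outer membrane translocase, rose from 14.3 ± 0.65 (SD, n = 3) to 20.7 ± 2.43 FPKM (SD, n = 3; log2 fold change 0.50, SE 0.09, edgeR adjusted p = 0.000587). TOMM40, the pore of the same translocase, fell from 67.0 to 56.6 FPKM (log2 fold change -0.27, SE 0.05, adjusted p = 0.00186). TIMM17B of the inner membrane translocase fell by 0.30 on the log2 scale (SE 0.06, adjusted p = 0.00327) and the receptor TOMM70 by 0.22 (SE 0.06, adjusted p = 0.0129). TOMM70 missed the threshold without control replicate 1 (adjusted p = 0.0580) and siGSE1 replicates 2 and 3 (0.0544 and 0.0768). The other lower genes, named outside the naming rule, were PAM16 (log2 fold change -0.38) and TIMM10 (-0.25). The count of lower import genes was 2 without control replicate 1 or siGSE1 replicate 2, 3 without siGSE1 replicate 3 and 8 without control replicate 2. TOMM22 and TOMM40, subunits of the same translocase, thus changed in opposite directions.

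Of 10 nuclear regulators, 1 rose and 1 fell (median log2 fold change 0.06). MYC rose from 18.5 ± 0.71 (SD, n = 3) to 22.3 ± 0.66 FPKM (SD, n = 3; log2 fold change 0.24, SE 0.05, edgeR adjusted p = 0.00524). PPRC1, a coactivator of the PGC-1 family, fell by 0.19 (SE 0.06, adjusted p = 0.0295), a call lost without control replicates 1 or 3 (adjusted p = 0.0748 and 0.0586) and siGSE1 replicates 1 or 2 (0.148 and 0.117).

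The RNA partners of these proteins come from the mitochondrial genome. The small-subunit rRNA, MT-RNR1, rose from 1233 ± 61.3 (SD, n = 3) to 1475 ± 7.88 FPKM (SD, n = 3; log2 fold change 0.23, SE 0.05, edgeR adjusted p = 0.00259). The large-subunit rRNA, MT-RNR2, fell from 10108 ± 454 to 8968 ± 470 FPKM (log2 fold change -0.20, SE 0.05, adjusted p = 0.0086), a call lost without siGSE1 replicate 1 (adjusted p = 0.0585) or 3 (0.0804). The kit used is the TruSeq RNA kit. How rRNA was handled is not stated in the labels, so these levels are those of the rRNA present in the libraries. Of the 13 proteins encoded in the mitochondrial genome, 4 fell, 0 rose and all 13 were below 0 (median -0.13). These were MT-ND4 (log2 fold change -0.31, SE 0.05), MT-ND2 (-0.26, SE 0.06), MT-ATP6 (-0.22, SE 0.05) and MT-CO1 (-0.16, SE 0.04), of which MT-CO1 missed the threshold without siGSE1 replicates 1, 2 or 3 in turn (adjusted p = 0.105, 0.112 and 0.0617). With limma on log2(TPM + 1), MT-ND2 (adjusted p = 0.0836), MT-ATP6 (0.145) and MT-CO1 (0.537) missed it, and MT-CO1 also with the length trend (0.139) or the GC and length trends (0.123) removed. The count of these genes that fell ran from 1 to 6 over the 14 alternatives.

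Markers of the epithelial state moved with the group as well. Of the 6 epithelial markers, 3 were lower in siGSE1 and 0 higher: CLDN4, a tight-junction claudin, by 0.72 on the log2 scale (SE 0.11, edgeR adjusted p = 0.000176), KRT8 by 0.26 (SE 0.07, adjusted p = 0.0173) and KRT18 by 0.25 (SE 0.08, adjusted p = 0.0317). The summed level of all 6 epithelial markers, including the 3 that did not pass, was 1569 to 2055 FPKM in control and 1516 to 1547 in siGSE1. KRT8 and KRT18 were highest in control replicate 2, and without it KRT18 missed the threshold (adjusted p = 0.0716), as both did without siGSE1 replicates 1, 2 or 3 in turn (0.0540 to 0.130). The summed leukocyte markers were at 3.63 to 5.95 FPKM in control and 3.37 to 6.06 in siGSE1, most of it CD14, and PTPRC was at 0.01 FPKM or less. The summed fibroblast markers were at 1.3 to 1.99 and 2.09 to 2.30 FPKM, and the endothelial ones at 0.14 to 0.20 and 0.07 to 0.25. The part of these markers in the changes of the mitoribosomal genes was not tested.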

How the data were processed

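RNA of 3 siGSE1 and 3 control samples of A549 cells was extracted with TRIzol and made into TruSeq RNA libraries, per the labels' protocols. The authors deposited one table with whole-number read counts and FPKM per gene and library. The tools named in the submitters' processing notes, without roles, are HISAT2, HTSeq, StringTie 1.3.3b, edgeR, cutadapt, FastQC and bcl2fastq, with build hg38, while the series text names STAR, RPKM and DESeq2. No source used here gives the annotation release or says whether counting used strand. Deposited FPKM equalled the count over exonic length and library total to within 0.005.

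Counts were tested with edgeR 4.0.16 in R 4.3.3 (quasi-likelihood test, TMM, filterByExpr with a minimum count of 10 and total of 15, adjusted p under 0.05, group as the only term), after a test on simulated data. FPKM are printed as deposited, and fold changes are on the model's scale. The median member had 617 to 870 counts per library. Alternatives were DESeq2 1.42.0, its size factors in edgeR, limma 3.58.1 on log2(TPM + 1), no filter, a robust prior, length and GC trends removed (the last with length, added after the data were seen), a block on the replicate number, and leaving out each library. Standard errors are the log2 fold change over the square root of F.

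The members and lists were chosen with earlier results of these data known. Named genes are the members past the threshold (at most 10 in each direction, smallest adjusted p first), the 3 most and 3 least abundant, and per list up to 4 past the threshold or else the 2 most abundant. Exon overlaps, transcript lengths and neighbours are from GENCODE v29, a reference separate from the deposited table. In it 24 of 78 members had the deposited exonic length and 32 the deposited coordinates, so overlaps may differ in the gene models used for the counts. Promoter sequences are from RefSeq.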

Additional observations from a re-analysis of the deposited data

How the results depend on the processing

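Counts of calls depended on the processing more than directions did. The count of members that fell was 9, and it was 5 with DESeq2, 5 with no low-count filter, 5 with the length trend removed and 1 with limma on log2(TPM + 1), and 1 to 9 when single libraries were left out. The count that rose was 0, and it was 1 with limma on log2(TPM + 1) and 1 with no filter (MRPS34 in both), and 0 to 2 when single libraries were left out. The median log2 fold change of the members was -0.09, and it was -0.021 with limma on log2(TPM + 1), where the median of all tested genes was 0.056, and -0.12 to -0.066 when single libraries were left out. Set against the median of all tested genes it lay between -0.12 and -0.06 in every alternative. All changed genes numbered 3167, and 1863 to 3562 when single libraries were left out. The share of these that rose was 54.6%, and 72.9% with limma on log2(TPM + 1). The fits with a library left out have fewer samples, and the cause of the other shifts was not tested. Of 223 values for the 16 named members under these alternatives, 158 kept their side of the threshold, 61 lost a call, 4 gained one and 0 reversed. Only the 9 members called in the main fit could lose a call, so all 61 losses were theirs, over 14 alternatives each. The 158 include values of uncalled members that stayed uncalled, so they overstate how stable the calls were. Among the related genes, limma on log2(TPM + 1) also took the adjusted p of POLRMT to 0.0520, TOMM70 to 0.0678, FASTKD2 to 0.130, PPRC1 to 0.152, KRT8 to 0.182, TWNK to 0.213, KRT18 to 0.255 and MT-RNR2 to 0.350, and the fit with no filter took PPRC1 to 0.0512. KRT8 and KRT18 also missed the threshold with a robust prior (0.0642 and 0.139), and KRT18 with the GC and length trends removed (0.0548).

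With the replicate number as a block (replicate block), 6 members fell, 0 rose and 3097 genes changed. Same-numbered libraries did not deviate together (correlations of 0.02, -0.0185 and 0.00238). These values cannot show whether same-numbered libraries shared a culture or a day, and the labels do not say.

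Counts were lowest for MRPL53, with 8 to 16 per library. By GENCODE exons, 45.2% of its exonic bases overlap another gene on the same strand. How reads in such stretches were assigned is not stated, so its low level may in part reflect the counting, which was not tested. Exon overlap affects 41 of 78 members, 14 of them over at least 20% of their exonic bases.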

Other observations

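Many of these genes have rows named as their pseudogenes. Symbols of the form of a member plus P and a number occurred for 35 members, with 76 rows in the deposited table, of which 13 had a count in any library. Summed over the libraries, pseudogene counts exceeded 1% of the count of the parent for 3 members: 23.0% for MRPS31, 9.02% for MRPL45 and 3.95% for MRPL53. Of the 3 pseudogene rows that passed the filter, 0 passed the test. How reads shared by a parent and its copies were counted is not stated, and the levels of these 3 members are uncertain.

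The order of the members by level changed with the length used. On the deposited exonic length MRPL41, MRPS34 and MRPS26 led. On the length of the GENCODE transcript with the longest coding sequence, an alternative chosen after the data were seen, MRPL24 (at 123 on the FPKM scale), MRPS12 (106) and MRPL43 (97.8) led, and MRPL53 (0.595), MRPS17 (4.84) and MRPL1 (5.57) were lowest. MRPL41 went from rank 1 to 12. For MRPL41 and MRPL53 the transcript is longer (1262 and 1162 bases) than the deposited exonic length (582 and 685 bases). Their counts were thus divided by more bases than the deposited gene model holds, which lowers their levels on this scale. Spearman's rho between both orders was 0.73 over the 78 members, which share their libraries and counts.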
